A study of Mus musculus with 19 samples.

Results

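Saline-infused IKKβ-/- mice were compared with saline-infused IKKβ+/+ mice, to read what the loss of IKKβ in smooth muscle changed in the suprarenal abdominal aorta (SRA) without angiotensin II (Ang II). The comparison held 4 IKKβ-/- and 5 IKKβ+/+ mice, chosen by the group named in each column of the deposited matrix, 9 of the 19 mice sequenced. The other 10 mice received Ang II, 5 of each genotype, and are used here only beside the saline values. IKKβ-/- mice were SMA-CreERT2 Ikkβ Flox/Flox ApoE-/- males and IKKβ+/+ mice were their SMA-CreERT2 ApoE-/- littermates, so both groups lacked ApoE, carried the inducible Cre and were given tamoxifen. All were on a C57BL6 background, ate chow, were used at 8 weeks of age and were infused with saline by osmotic pump for 24 h before the SRA was taken. The Cre is driven by the Acta2 promoter, which acts in smooth muscle cells, so endothelial, adventitial and immune cells of the wall kept Ikbkb. The RNA came from the whole vessel segment. The exons between the loxP sites and the time of day of collection are not given in the sources used here.

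IKKβ is the catalytic subunit that, with IKKα and the scaffold IKKγ (NEMO), phosphorylates the inhibitor IκBα and so frees the NF-κB factors RelA and p50 to enter the nucleus. NF-κB then switches on cytokines, chemokines and adhesion molecules along with its own inhibitors, IκBα and A20. Vascular smooth muscle cells normally hold a contractile state, rich in smooth muscle myosin and actin, and can shift to a matrix-producing or macrophage-like state in aortic disease.

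Read depth and tissue were looked at first. Between 11382573 and 19906694 reads lay on genes in the 9 saline mice, and no 2 libraries agreed within sampling noise. Acta2, Myh11 and Tagln, the defining genes of the smooth muscle contractile apparatus, were among the most abundant transcripts of both groups, with group means of 81945 to 194321 normalized counts. Library X2406 of the IKKβ-/- group stood apart. It had the fewest reads (11382573), 38.7% of its normalized counts came from mitochondrial genes against 8.89% to 20.3% in the other IKKβ-/- mice and 5.99% to 9.07% in the IKKβ+/+ mice, and its 10 most abundant genes took 43.9% of its counts. On the first principal component of the saline mice (38.2% of the variance) it lay at -86.57, with the other 8 mice between -36.07 and 37.5. Medians and the genes the results turn on are therefore given with and without X2406. Without it, of the genes named below, only Tnfaip3, Dnajb1 and the 14 genes that passed in every fit without 1 mouse were past the threshold.

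In all, 812 of 14845 genes tested were differentially expressed (DEGs) between saline-infused IKKβ-/- and IKKβ+/+ mice (5.47%), at an adjusted p under 0.1 in limma with Benjamini-Hochberg adjustment and a fold change above 1.2. Of these, 504 were higher in IKKβ-/- mice (3.40% of genes tested) and 308 lower (2.07%). Counts in the gene and marker lists below are to be read beside these shares. More than 2-fold differences were seen for 154 of the higher and 99 of the lower genes, and the median log2 difference was 0.67 for the higher and -0.76 for the lower genes, against -0.02 over all genes tested. The values of the 4 and the 5 mice did not overlap for 1301 genes (8.76%), of which 517 were DEGs. Without X2406 the count fell to 24, of which 23 were among the 812. Each of the 812 kept its direction and an unadjusted p under 0.05, with medians of 0.58 and -0.65. They were chosen in a fit that holds all the other mice too, so this was largely given in advance. The count also moved by more than 1.5 times without X2401 (358), X2403 (66), X2409 (1726), X2370 (185), X2372 (424), X2373 (112) or X2376 (308), and it was 546 without X2378. DESeq2 on the recovered reads called 1358 genes, of which 796 were among the 812. When the difference between the evening and morning clock scores was taken as a covariate, 0 genes passed in limma and 1395 had an unadjusted p under 0.05. The mean log2 score of the evening clock genes did not overlap between the saline groups (1 to 1.53 in IKKβ-/- and -1.25 to 0.91 in IKKβ+/+ mice). The gap was narrow (0.91 in X2376 and 1 in X2403), and the IKKβ+/+ mice differed widely among themselves. Since every IKKβ-/- saline mouse had the higher score, the covariate also takes up part of the genotype difference. Which differences go with the clock was not tested. With the mitochondrial share as a covariate 31 genes passed.

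**Figure D1:**
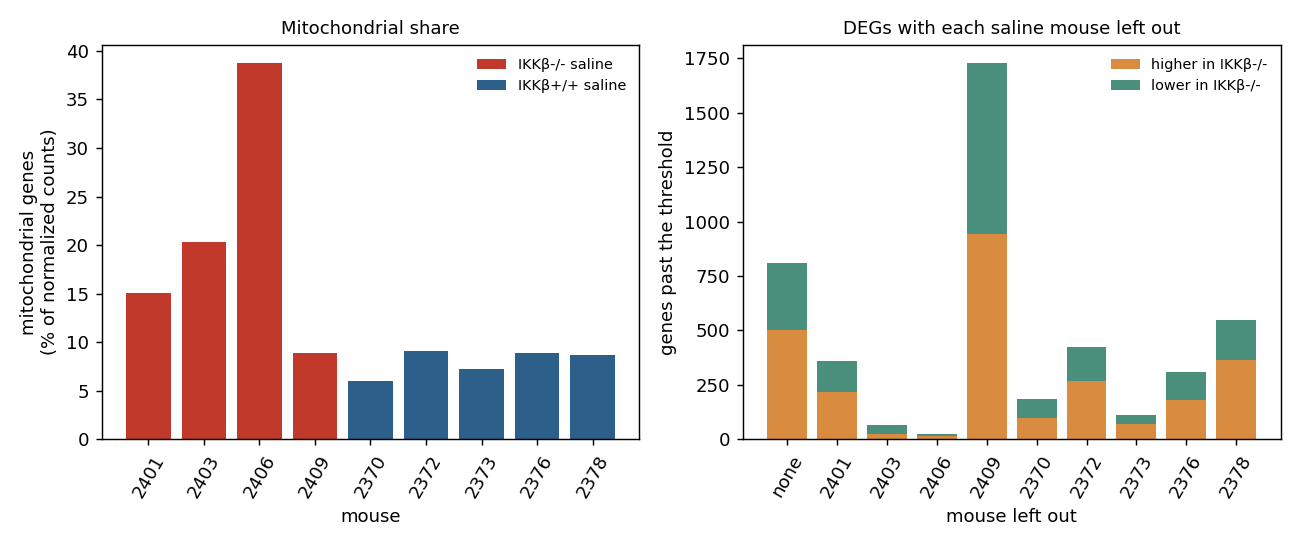
Left, percentage of normalized counts from mitochondrial genes in each saline mouse (bars, red IKKβ-/-, blue IKKβ+/+), highest in X2406 at 38.7%. Right, number of genes past the threshold with all 9 saline mice and with each mouse left out in turn, stacked by direction, from 24 without X2406 to 1726 without X2409.

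The deleted gene, Ikbkb, lies at 22659212 to 22706589 on chromosome 8 (GRCm38, ENSMUSG00000031537.15). It had 464, 572, 586 and 439 normalized counts in IKKβ-/- mice X2401, X2403, X2406 and X2409, and 594, 791, 695, 609 and 678 in IKKβ+/+ mice X2370, X2372, X2373, X2376 and X2378. Mice are listed in this order throughout. All 4 IKKβ-/- mice lay below all 5 IKKβ+/+ mice, although the highest IKKβ-/- mouse (586) lay close to the lowest IKKβ+/+ mouse (594). The means were 515 ± 74.3 (SD, n = 4) and 673 ± 78.6 (SD, n = 5), which is 23.5% lower (log2 difference -0.39, exact permutation test over mice, two-sided, p = 0.00794, the smallest the test can give). In limma the gene passed with an adjusted p of 0.0988 and no longer did so when any 1 mouse was left out, at log2 differences of -0.32 to -0.46. With Ang II it was 24.5% lower, again with no overlap. In RNA of the whole vessel, fewer cells of a type and less RNA per cell cannot be told apart, and this holds for every gene below.

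The partners of IKKβ did not pass the threshold. Chuk, which encodes IKKα, had a log2 difference of 0.16 (adjusted p = 0.55 from limma) and Ikbkg, which encodes the scaffold IKKγ, of -0.11 (adjusted p = 0.583). Among 28 genes of the IKK complex and NF-κB machinery, 0 rose and 3 fell, Ikbkb among them, against 2.07% of all genes tested. The median log2 difference was -0.05. Tnfaip3, the ubiquitin-editing feedback inhibitor A20, had 154, 101, 204 and 97.2 normalized counts in IKKβ-/- mice and 326, 237, 285, 239 and 225 in IKKβ+/+ mice. It fell by 0.96 on the log2 scale (SE 0.234, adjusted p = 0.0512), with no overlap between the groups, and by 1.17 without X2406 (adjusted p = 0.0715). Traf3, an adaptor that restrains the non-canonical NF-κB pathway, had 401, 383, 544 and 494 against 715, 570, 762, 628 and 576 normalized counts and fell by 0.52 (SE 0.144, adjusted p = 0.0693). The groups of Traf3 did not overlap, and without X2406 the adjusted p was 0.133. Nfkbia, which encodes IκBα, had 822, 1670, 1010 and 835 normalized counts in IKKβ-/- and 720, 746, 810, 735 and 681 in IKKβ+/+ mice. Its values did not overlap and were higher in IKKβ-/- mice, at a log2 difference of 0.49 that did not pass (SE 0.19, adjusted p = 0.162).

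Of 24 inflammatory NF-κB targets tested, 0 rose and 2 fell, against 2.07% of all genes tested that fell. The median log2 difference was -0.46, with 18 of 24 below 0. Tnfaip2, a TNF-induced protein, had a mean of 209.6 normalized counts in IKKβ-/- mice and 365.3 in IKKβ+/+ mice (262, 485, 391, 368 and 320). It fell by 0.83 (SE 0.255, adjusted p = 0.0902 from limma), with X2403 (275) above the lowest IKKβ+/+ mouse. Lcn2, the iron-carrier-binding protein lipocalin 2, fell by 2.16 (SE 0.552, adjusted p = 0.0563), from 7.15 to 14.2 normalized counts in IKKβ+/+ mice to 0 to 4.83 in IKKβ-/- mice. These are a few reads per library. Vcam1, an adhesion molecule for leukocytes, had 2770, 2940, 2150 and 1500 against 2090, 2390, 3860, 3420 and 2200 normalized counts, with overlapping groups and a log2 difference of -0.26 (adjusted p = 0.63). Without X2406 neither list target passed, and Tnfaip3 was the only gene of the NF-κB machinery that did.

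The genes least tied to single mice were then listed. The 14 genes that passed the threshold with each of the 9 mice left out in turn were chosen after their values were seen, so their counts are a description. Gsr (chromosome 8, 33652523 to 33698163), glutathione reductase, which restores reduced glutathione, had the smallest adjusted p of all genes. It had 1040, 988, 886 and 1010 normalized counts in IKKβ-/- mice and 554, 441, 554, 538 and 458 in IKKβ+/+ mice, a rise of 0.95 on the log2 scale (SE 0.118, adjusted p = 0.00175 from limma). Every IKKβ-/- value exceeded every IKKβ+/+ value by more than the spread within either group, and without X2406 the difference was 0.996 (adjusted p = 0.00432 from limma). Gsr lies 11 Mb from Ikbkb on the same chromosome, and whether sequence linked to the floxed allele reaches it was not tested.

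Wdfy1, an endosomal adaptor of toll-like receptor signalling, had 1290, 2090, 1760 and 1540 normalized counts in IKKβ-/- mice and 514, 539, 576, 379 and 550 in IKKβ+/+ mice. It rose by 1.70 (SE 0.237, adjusted p = 0.00471 from limma), and by 1.67 without X2406 (adjusted p = 0.0263). Resf1, which takes part in silencing retroelements, rose by 0.96 (adjusted p = 0.027), from 887 to 1790 normalized counts in IKKβ+/+ to 2270 to 2720 in IKKβ-/- mice. Ankrd12, an ankyrin repeat protein of the nucleus, rose by 1.45, the deubiquitinase Otud1 by 0.92 and the acyl-CoA-binding protein Acbd4 by 0.995. Gm49839, a predicted gene, rose by 3.60 from 1.33 to 7.17 to 21.8 to 86.4 normalized counts. In each of these genes the groups did not overlap.

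The falls among the 14 included genes of leukocytes. Lcp1, the leukocyte actin-bundling protein plastin 2, had 275, 283, 335 and 288 normalized counts in IKKβ-/- mice and 510, 675, 604, 706 and 655 in IKKβ+/+ mice. It fell by 1.09 on the log2 scale (SE 0.17, adjusted p = 0.0164 from limma), and by 1.15 without X2406 (adjusted p = 0.0263). Dock2, the Rac activator needed for leukocyte migration, had 33.8, 27.4, 43.2 and 48.6 against 89.8, 105, 99.6, 103 and 124 normalized counts, a fall of 1.45 (SE 0.261, adjusted p = 0.027). Both genes are separated between the groups with no overlap. Ptprj, a receptor tyrosine phosphatase, fell by 0.83, Nrp1, a coreceptor of semaphorins and VEGF, by 0.73, the trafficking chaperone Unc119b by 0.73 and Hgsnat, a lysosomal enzyme of heparan sulfate breakdown, by 0.62. G530011O06Rik on the X chromosome fell by 3.43, from 22.6 to 69.3 normalized counts in IKKβ+/+ mice to 1.05 to 5.4 in IKKβ-/- mice. With Ang II, 12 of the 14 genes had the same sign as with saline, against 58.3% of all genes tested. The groups of Gsr, Hgsnat, Acbd4 and G530011O06Rik did not overlap there either. The share of all genes tested without overlap with Ang II is not given here, so no excess is read from these genes.

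**Figure D2:**
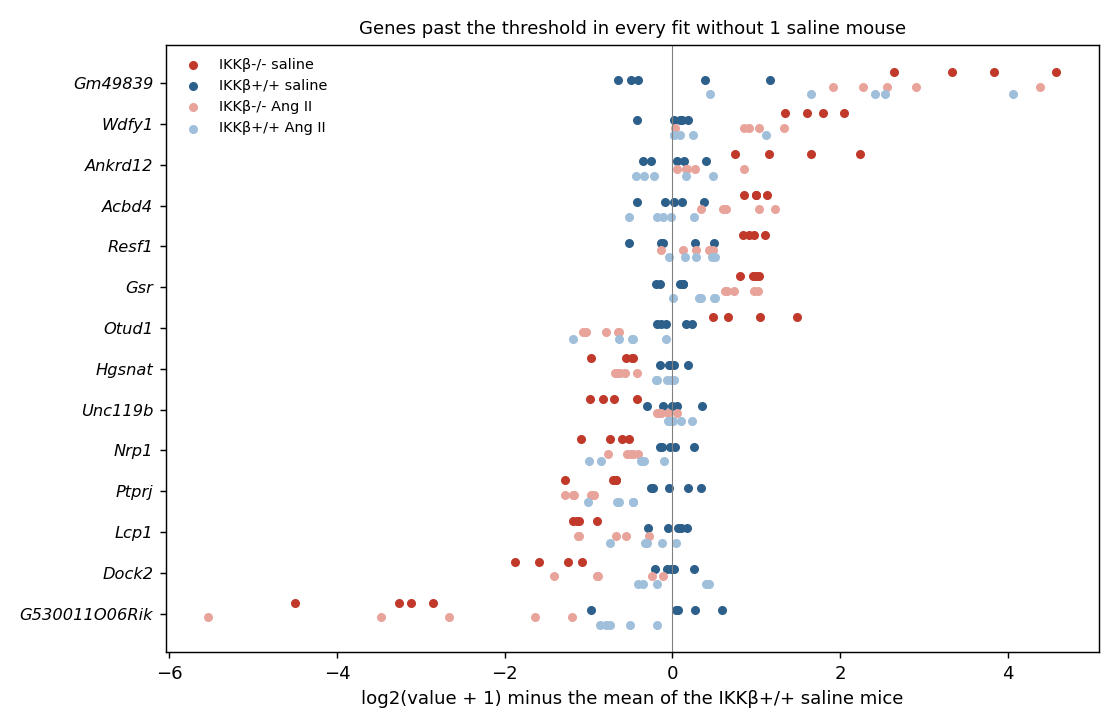
The 14 genes past the threshold in every fit without 1 saline mouse. Each point is a mouse and the horizontal axis is log2(value + 1) minus the mean of the saline IKKβ+/+ mice, with dark colours for saline and pale colours for Ang II. Dark red (IKKβ-/-) and dark blue (IKKβ+/+) points do not overlap for any of the 14 genes, while the pale points do for 10 of them.

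Genes of the circadian clock differed between the groups in both of its arms. In the clock, Clock or Npas2 pairs with Arntl (BMAL1) on E-boxes and drives Per, Cry and Nr1d genes, whose products then shut the pair down. The PAR-bZIP factors Dbp, Tef and Hlf act through D-boxes, and Nr1d proteins repress Arntl through ROR elements. Of 13 genes of the evening arm, 9 rose and 0 fell (Per1, Per2, Per3, Nr1d2, Dbp, Tef, Hlf, Ciart and Bhlhe41), and all 13 had a positive log2 difference, with a median of 1.38. Of 6 genes of the morning arm, Arntl, Npas2 and Clock fell, all 6 were below 0 and the median was -0.78. Without X2406 0 genes of either arm passed, while the medians were 1.19 and -0.83. Between 2 and 9 evening genes passed with any other mouse left out.

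The promoters of 4 of these genes are shown because they hold the letters of the clock motifs. They are 300-base windows around a RefSeq start site on GRCm38.p6, written 5′ to 3′ on the strand of the gene, with the motif in capitals. Where a gene has several start sites, the one with the most matches is given. Ciart (chr3:95882179-95882478, minus strand) holds 3 E-boxes with the letters CACGTG, Per1 (chr11:69098699-69098998, plus strand) holds 1, Per3 (chr4:151044616-151044915, minus strand) holds 2 D-boxes with the letters TTATGTAA, and Arntl (chr7:113207261-113207560, plus strand) holds 1 ROR element with the letters TAGGTCA, 30 bases after the start site.
Ciart: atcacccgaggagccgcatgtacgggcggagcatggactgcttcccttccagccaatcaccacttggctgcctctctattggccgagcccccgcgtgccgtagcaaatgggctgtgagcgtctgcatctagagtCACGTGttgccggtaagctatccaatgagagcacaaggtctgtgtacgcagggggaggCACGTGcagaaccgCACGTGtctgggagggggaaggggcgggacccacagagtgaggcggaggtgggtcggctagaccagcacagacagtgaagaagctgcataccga
Per1: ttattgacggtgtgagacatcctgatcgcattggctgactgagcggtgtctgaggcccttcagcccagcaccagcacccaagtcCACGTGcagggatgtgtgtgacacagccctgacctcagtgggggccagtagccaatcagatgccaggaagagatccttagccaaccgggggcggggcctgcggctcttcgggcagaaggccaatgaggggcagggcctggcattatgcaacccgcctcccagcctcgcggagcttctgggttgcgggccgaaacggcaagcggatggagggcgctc
Per3: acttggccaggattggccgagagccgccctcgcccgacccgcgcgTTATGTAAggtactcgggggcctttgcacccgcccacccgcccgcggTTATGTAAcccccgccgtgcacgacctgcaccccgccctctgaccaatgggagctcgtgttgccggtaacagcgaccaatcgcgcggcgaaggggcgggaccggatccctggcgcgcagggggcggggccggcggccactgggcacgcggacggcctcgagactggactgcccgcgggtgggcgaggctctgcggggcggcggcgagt
Arntl: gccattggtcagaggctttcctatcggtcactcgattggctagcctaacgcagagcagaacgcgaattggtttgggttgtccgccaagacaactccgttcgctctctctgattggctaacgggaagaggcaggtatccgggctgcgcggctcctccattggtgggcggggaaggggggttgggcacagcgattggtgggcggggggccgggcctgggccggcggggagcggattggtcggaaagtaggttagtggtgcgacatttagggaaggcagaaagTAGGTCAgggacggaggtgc
An E-box was found in 5 of 11 evening genes with a promoter in the table (Per1, Cry1, Tef, Ciart and Bhlhe41) and in 0 of 5 morning genes, against 11.4% of all genes tested that had one. The ROR letters were in 0 of 11 evening and 2 of 5 morning genes (Arntl and Nfil3), against 2.25%.

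Ciart, a repressor of the Clock and Arntl pair and the holder of the 3 E-boxes, had 122, 94.8, 279 and 204 normalized counts in IKKβ-/- mice and 3.33, 2.38, 22, 72.2 and 35.9 in IKKβ+/+ mice. It rose by 3.37 on the log2 scale (SE 0.762, adjusted p = 0.0464 from limma), and the difference was 3.11 without X2406 (adjusted p = 0.156). All IKKβ-/- values lay above all IKKβ+/+ values. Dbp had 3710, 3060, 5600 and 3810 against 164, 71.5, 923, 2810 and 2610 normalized counts, a rise of 2.7 (SE 0.763, adjusted p = 0.0721), and the IKKβ+/+ mice themselves ranged from 71.5 to 2810. X2370 and X2372 were the lowest IKKβ+/+ mice for Dbp, Ciart, Per1, Per2 and Per3, and X2376 and X2378 were close to the IKKβ-/- range for Dbp and Per3.

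Per1, a negative limb gene that also responds to glucocorticoids, had 1290, 759, 1020 and 1690 normalized counts in IKKβ-/- and 212, 259, 472, 712 and 456 in IKKβ+/+ mice, a rise of 1.56 (SE 0.352, adjusted p = 0.0464 from limma). Per2, its paralogue, had 1160, 1130, 1290 and 1220 against 248, 278, 597, 638 and 591 and rose by 1.46. Per3 had 888, 852, 1620 and 879 against 114, 106, 323, 618 and 651 and rose by 1.88. The 3 Per genes did not overlap between the groups. Nr1d1, which encodes the repressor REV-ERBα, had 2540, 2790, 2940 and 4070 against 1130, 645, 4190, 3550 and 4240 normalized counts, with overlapping groups and a difference of 0.50 that did not pass.

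In the opposite direction, Arntl had 109, 51.6, 12.6 and 51.5 normalized counts in IKKβ-/- mice and 786, 921, 537, 72.2 and 165 in IKKβ+/+ mice. It fell by 2.93 (SE 0.602, adjusted p = 0.0367 from limma), and the difference was -2.35 without X2406 (adjusted p = 0.133). IKKβ+/+ mouse X2376 (72.2) lay below IKKβ-/- mouse X2401 (109), so the groups overlapped. Npas2 fell by 2.13 with 1 overlapping mouse, and Clock fell by 0.65 with none, from 1490 to 2460 to 1130 to 1360 normalized counts. With Ang II 0 genes of either arm passed. The log2 difference between genotypes there was -0.85 for Arntl, 1.42 for Dbp, -0.46 for Per1 and 0.21 for Per2, and the groups of Arntl and Dbp did not overlap. The mean log2 score of the evening genes was 1 to 1.53 in IKKβ-/- and -1.25 to 0.91 in IKKβ+/+ mice with saline. Whether the 2 groups were collected at different hours was not tested, and collection time and genotype cannot be told apart without a record of it.

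**Figure D3:**
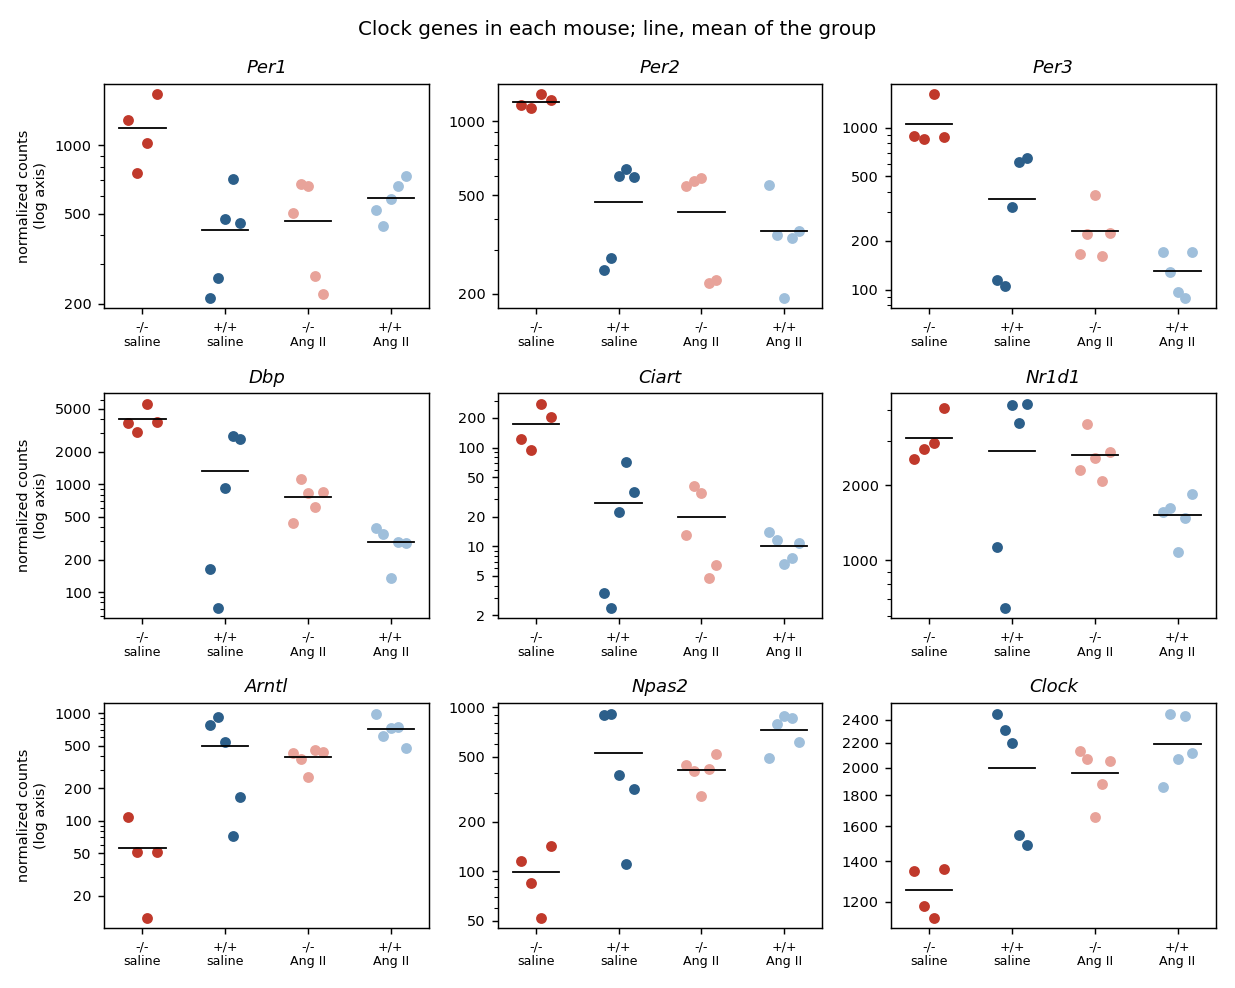
Normalized counts (log axes) of 9 clock genes in each mouse, by genotype and infusion, with the group mean as a line. With saline the 4 IKKβ-/- mice lie above the 5 IKKβ+/+ mice for Per1, Per2, Per3, Dbp and Ciart and below them for Clock, whereas Nr1d1, Arntl and Npas2 overlap.

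Transcripts of the ribosome and of the respiratory chain were read next. Of 79 cytosolic ribosomal protein genes 28 rose, against 3.40% of all genes tested, and 0 fell. In all, 76 had a positive log2 difference and the median was 0.36. Their summed level was 124400 to 163200 normalized counts in IKKβ-/- and 100600 to 117700 in IKKβ+/+ mice, with no overlap. Rps20 of the small subunit had 1650, 1740, 1870 and 1470 against 1010, 1300, 1150, 1310 and 1290 normalized counts and rose by 0.47 (SE 0.0964, adjusted p = 0.0367 from limma). Rpl26 of the large subunit had 1700, 2250, 1820 and 1390 against 1030, 1230, 1110, 1070 and 1190 and rose by 0.65 (SE 0.15, adjusted p = 0.0475), and Rps3a1 rose by 0.46. None of the 3 genes overlapped between groups. Without X2406 0 of the 79 passed while the median was 0.38, and the count was between 1 without X2403 and 40 without X2409 with the other mice left out. Many of these genes have processed pseudogenes, so the assignment of their reads is uncertain. Of 77 ribosome biogenesis factors 2 rose (Utp3 by 0.37 and Taf1d by 0.96), no more than the 3.40% of all genes tested. None fell and the median was 0.06.

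Of 76 nuclear genes of oxidative phosphorylation 18 rose, against 3.40% of all genes tested, and 0 fell. In all, 72 were above 0 and the median log2 difference was 0.27. Atp5h, a subunit of ATP synthase, had 933, 1110, 975 and 859 normalized counts in IKKβ-/- and 771, 738, 733, 703 and 746 in IKKβ+/+ mice, a rise of 0.39 (SE 0.0962, adjusted p = 0.0533 from limma). Ndufs3 of complex I rose by 0.40 and Cox8a of complex IV by 0.50, and Atp5h and Ndufs3 did not overlap between groups. Without X2406 0 genes passed and the median was 0.27, and 0 passed without X2403 or X2373. The 8 mitochondrially encoded mRNAs tested had a median of 1.46, with 0 past the threshold and 8 above 0. mt-Nd4, a complex I subunit, had 143000, 210000, 548000 and 77700 normalized counts in IKKβ-/- and 52300, 79900, 62900, 75900 and 66700 in IKKβ+/+ mice, a log2 difference of 1.5 (adjusted p = 0.107). X2406 lay far above the others and X2409 within the range of the IKKβ+/+ mice, and without X2406 the median of the 8 mRNAs was 0.96. With the mitochondrial share of each library as a covariate, the median was 0.20 for the ribosomal proteins and 0.16 for the nuclear respiratory genes. In that fit 31 of all genes tested passed, and 0 of either list did. With Ang II the medians were 0.17 and 0.11, with 0 genes past the threshold.

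Of 29 smooth muscle contractile genes 2 rose, against 3.40% of all genes tested, 0 fell and 22 had a positive log2 difference, with a median of 0.25 (0.24 without X2406, when 0 passed). Ppp1r14a, the inhibitor CPI-17 of myosin phosphatase, had 2640, 2710, 2840 and 2770 normalized counts in IKKβ-/- mice and 2260, 2160, 1470, 1630 and 1640 in IKKβ+/+ mice. It rose by 0.60 (SE 0.173, adjusted p = 0.0746 from limma) with no overlap. Actg2, the enteric smooth muscle actin, rose by 0.79 (SE 0.242, adjusted p = 0.0883), from 1650 to 3290 to 3680 to 5880 normalized counts.

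Other genes of the contractile state and of its loss did not pass. Tagln, an actin-binding protein of contractile cells, had 114000, 111000, 108000 and 126000 normalized counts in IKKβ-/- and 87100, 94400, 82000, 80200 and 66000 in IKKβ+/+ mice, which did not overlap, at a log2 difference of 0.49 (adjusted p = 0.215 from limma). Myh11, smooth muscle myosin heavy chain, was at 0.24 (adjusted p = 0.656), with X2409 at 167000 and the other 8 mice between 86300 and 108000. Klf4, a factor that drives the loss of the contractile state, was at 0.36 (adjusted p = 0.405), Ccn2, a matrix protein induced by TGF-β and stretch, at 0.88 (adjusted p = 0.276) and the autophagy gene Atg5 at -0.03 (adjusted p = 0.927). All 4 overlapped between the groups.

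Of the 22 genes of the synthetic and macrophage-like state, Mmp2 and Cd68 fell, and the median of the list was -0.17. Mmp2, a gelatinase, had 3210, 1770, 1420 and 3300 against 4770, 3830, 4730, 3780 and 4320 normalized counts and fell by 0.91 (SE 0.279, adjusted p = 0.0901 from limma), with no overlap between the groups. Cd68, a lysosomal glycoprotein of macrophages, had 93.6, 119, 99.1 and 69.7 against 128, 239, 167, 206 and 179 and fell by 0.93 (SE 0.257, adjusted p = 0.0674). Without X2406 the adjusted p was 0.304 for Mmp2 and 0.174 for Cd68.

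Genes of the extracellular matrix were read in 2 lists. Of 28 collagens and matrix enzymes 0 rose and 5 fell (Col5a3, Plod3, Col6a1, Col6a2 and Col5a2), 25 were below 0 and the median was -0.41. Col6a1, a chain of the microfibril-forming collagen VI, had 8690, 6240, 5070 and 11600 normalized counts in IKKβ-/- and 12400, 11100, 13500, 10600 and 11500 in IKKβ+/+ mice, a fall of 0.65 (SE 0.193, adjusted p = 0.0812 from limma) with X2409 inside the IKKβ+/+ range. Plod3, a lysyl hydroxylase that modifies collagen, fell by 0.39 with no overlap. Of 21 genes of the elastic fibre 0 rose, 2 fell and 20 were below 0, with a median of -0.28. Ltbp4, which tethers latent TGF-β and assists elastic fibre assembly, had 12200, 12400, 9620 and 15200 against 16700, 20200, 21900, 18000 and 21900 normalized counts and fell by 0.69 (SE 0.171, adjusted p = 0.0533), with no overlap. Fbn1, fibrillin-1, fell by 0.81 with 1 overlapping mouse. Without X2406 0 genes of both lists passed and the medians were -0.30 and -0.13.

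The 10 largest rises among DEGs with no overlap and a mean of at least 50 normalized counts in a group were Ciart, Dbp, Per3, Wdfy1, Alb and 5 predicted genes. Gm6058, Gm50403, Gm49266, Gm42480 and Gm10800 rose by 3.97, 3.82, 3.21, 3.13 and 2.85 on the log2 scale. The annotation lists Gm6058 as a processed pseudogene and 3 of the others as unverified transcripts. Each was highest in X2406 and lowest of the IKKβ-/- mice in X2409, the mice with the highest and lowest mitochondrial share of the group. With that share as a covariate none of the 5 passed, as was so for all but 25 of the 812 DEGs. Their log2 differences in that fit were 1.99 for Gm6058, 2.42 for Gm50403, 1.56 for Gm49266, 2.18 for Gm42480 and 0.472 for Gm10800. Gm10800, for example, had 26.1, 27.4, 391 and 13.8 normalized counts in IKKβ-/- and 2 to 8.73 in IKKβ+/+ mice, and its difference was 1.82 without X2406 (adjusted p = 0.277 from limma). Alb, the albumin gene of hepatocytes, had 99.4, 307, 30.6 and 40.6 against 26.6, 25.4, 1.76, 5.7 and 7.17 normalized counts and rose by 2.97 (SE 0.869, adjusted p = 0.0779 from limma). With Ang II its difference was -2.78.

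Adamts4, an aggrecanase, was the gene with the largest fall by the same rule. It had 12.5, 4.21, 0 and 17.4 normalized counts in IKKβ-/- mice and 67.9, 87.3, 44.1, 28.5 and 29.5 in IKKβ+/+ mice. It fell by 2.99 (SE 0.648, adjusted p = 0.0367 from limma), and by 2.13 without X2406 (adjusted p = 0.133). Meox1, a homeobox factor, fell by 1.83 (SE 0.383, adjusted p = 0.0367), from 36.5 to 118 to 10.2 to 22.2 normalized counts. Abca6, a lipid transporter of the ABCA family, fell by 2.17, from 138 to 345 to 20 to 81.1. The rule takes only genes without overlap, so the separation of the groups for these 3 genes was part of the choice.

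The sulfatase Arsi fell by 1.71 and the fatty acid elongase Elovl7 by 1.5. Sema7a, a membrane-anchored semaphorin, fell by 1.47 and Plxnc1, the plexin that binds it, by 1.55. Sema7a had 70.5, 68.5, 43.2 and 39.2 normalized counts against 161, 252, 146, 106 and 121, and Plxnc1 had 25.1, 44.2, 14.4 and 18.9 against 71.9, 65.9, 67.8, 62.7 and 86.9. Cfb, complement factor B of the alternative pathway, fell by 2.09 (SE 0.615, adjusted p = 0.079 from limma). Among the 10 largest rises and the 10 largest falls, only Wdfy1 and Dock2 kept the threshold with each mouse left out in turn.

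Stress and signalling lists differed in sign. Of 30 genes of the unfolded protein response 0 rose and 6 fell (Pdia6, Asns, Pdia4, Canx, Sdf2l1 and Hyou1), with a median of -0.34 (-0.27 without X2406, when 0 passed). Pdia6, a disulfide isomerase of the endoplasmic reticulum, had 1750, 1990, 1530 and 2240 normalized counts in IKKβ-/- and 2810, 4050, 3370, 2430 and 2510 in IKKβ+/+ mice, a fall of 0.68 (SE 0.162, adjusted p = 0.0501 from limma) with no overlap. Asns, asparagine synthetase, which is induced by the ATF4 branch, fell by 1.14, and Pdia4 by 0.62. Of 26 immediate early genes 2 rose, against 3.40% of all genes tested, 22 were above 0 and the median was 0.55. Klf6, an injury-induced zinc finger factor, had 12800, 7500, 5370 and 9380 against 3160, 3750, 4820, 5030 and 4590 normalized counts and rose by 0.99 (SE 0.271, adjusted p = 0.0662). Atf3, a stress-induced repressor, had 11800, 3110, 888 and 10100 against 385, 755, 884, 906 and 1450 and rose by 2.40 (SE 0.761, adjusted p = 0.0971), with X2406 inside the IKKβ+/+ range. Of 18 heat shock and cold-inducible genes 1 rose, against 3.40% of all genes tested, and the median was 0.44. The gene that rose was the cold-induced RNA-binding protein Rbm3, by 0.72. Without X2406 Rbm3 was at 0.69 (adjusted p = 0.254 from limma), and 1 gene of the list passed, the HSP40 cochaperone Dnajb1, at 2.06 (adjusted p = 0.062) against 1.42 (adjusted p = 0.111) with all mice. Hspa1a and Hspa1b, which encode inducible HSP70, had log2 differences of 2.38 and 2.58 that did not pass (adjusted p = 0.136 and 0.129).

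Of 18 glucocorticoid-induced genes 2 rose (Klf9 and Per1) and 1 fell (Lcn2), with a median of 0.50. Klf9, a glucocorticoid-induced factor that also cycles with the clock, had 8550, 8880, 8800 and 8410 normalized counts in IKKβ-/- and 3260, 3720, 5100, 5520 and 5970 in IKKβ+/+ mice. It rose by 0.92 (SE 0.176, adjusted p = 0.0367 from limma), and the 4 IKKβ-/- mice lay close together above all IKKβ+/+ mice. Without X2406 the difference was 0.91 (adjusted p = 0.112). The glucocorticoid target Tsc22d3 was at 1.03 (adjusted p = 0.135) and Fkbp5 at 0.51 (adjusted p = 0.456), and neither passed.

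Among lipid genes, 2 of 18 of fatty acid synthesis fell and 0 rose, with a median of -0.65. Fasn, fatty acid synthase, had 723, 1040, 461 and 1400 normalized counts in IKKβ-/- mice and 8020, 819, 1660, 2930 and 3840 in IKKβ+/+ mice, a fall of 1.65 (SE 0.474, adjusted p = 0.0746 from limma) with X2372 inside the IKKβ-/- range. Acly, ATP citrate lyase, fell by 0.80. White adipocyte markers moved with these genes. All 19 in the deposited matrix summed to 8403 to 12780 normalized counts in IKKβ-/- and 8262 to 38500 in IKKβ+/+ mice. None of the 18 tested passed, 17 were below 0 and their median was -1.46. Among the saline mice their mean log2 score was highest in X2370 (1.43), which also had the most Fasn. Adipoq and Plin1 had log2 differences of -2.45 and -2.42 (adjusted p = 0.163 and 0.198). With the white adipocyte score as a covariate neither Fasn nor Acly passed, at log2 differences of -0.86 (adjusted p = 0.233 from limma) and -0.58 (adjusted p = 0.175). Cholesterol biosynthesis (21 genes, median 0.14), sterol regulation and uptake (15 genes, -0.15) and fatty acid oxidation (34 genes, -0.0026) had 0 genes past the threshold.

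Immune and proliferation lists lay below 0 with few calls. Of 20 macrophage markers 0 rose and 3 fell (Cd68, Adgre1 and Ctss), against 2.07% of all genes tested that fell. In all, 18 were below 0 and the median was -0.60. The summed level was 9033 to 12600 normalized counts in IKKβ-/- and 13230 to 17050 in IKKβ+/+ mice, with no overlap. Adgre1, the F4/80 antigen, had 216, 210, 187 and 178 against 341, 470, 385, 393 and 431 normalized counts and fell by 1.02 (SE 0.299, adjusted p = 0.0779 from limma). The groups were separated, although the adjusted p was 0.213 without X2406. Lcp1 and Dock2, described above, moved with these markers, and the part of macrophage RNA in their fall was not tested. Of 23 complement and coagulation genes 0 rose and 3 fell (Plat, Cfb and C2), with a median of -0.54. One of 9 MHC class II genes fell (Ctss, median -0.38), as did 1 of 18 MHC class I genes (Erap1, a peptide-trimming aminopeptidase, by 0.36, median -0.17). Type I interferon-stimulated genes (30 genes, median -0.22), guanylate-binding proteins and immunity-related GTPases (16 genes, -0.23) and cell division genes (30 genes, -0.36) had 0 past the threshold.

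Markers of the other cell types of the segment were read in the same way. The 20 endothelial markers had a median of -0.47 and summed levels of 23160 to 44780 in IKKβ-/- and 34340 to 55830 normalized counts in IKKβ+/+ mice. The 16 fibroblast markers had a median of -0.52, with summed levels of 87440 to 131500 and 133400 to 166300 that did not overlap. Pdgfra, a defining fibroblast receptor, was at -1.01 and Tek, the endothelial angiopoietin receptor, at -0.80, and neither passed (adjusted p = 0.244 and 0.13 from limma). The matrix genes that fell are expressed by fibroblasts as well as smooth muscle cells, and the part of fibroblast RNA in their fall was not tested. Lymphatic endothelial (6 genes, -0.51), T and B lymphocyte (8 genes, -0.72), neutrophil (4 genes, -0.60), erythroid (5 genes, -0.58), nerve and Schwann cell (16 genes, 0.04), mesothelial (2 genes, -0.31) and adrenal cortex (2 genes, -0.18) markers had 0 past the threshold. Of 11 brown adipocyte markers, at a median of -0.62, 1 rose (Fabp3, a fatty acid-binding protein of muscle and brown fat, by 0.88). Skeletal and cardiac muscle markers (11 genes tested) had a median of 0.95 with 0 past the threshold. All 17 of them in the deposited matrix summed to 271.2 to 776.5 in IKKβ-/- and 212 to 334.1 normalized counts in IKKβ+/+ mice. Of 2 hepatocyte markers tested Alb rose and Trf, transferrin, was at -0.98 with no overlap (adjusted p = 0.135 from limma). All 6 hepatocyte markers in the deposited matrix summed to 535.1 to 1114 normalized counts in IKKβ-/- and 1061 to 1842 in IKKβ+/+ mice.

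**Figure D4:**
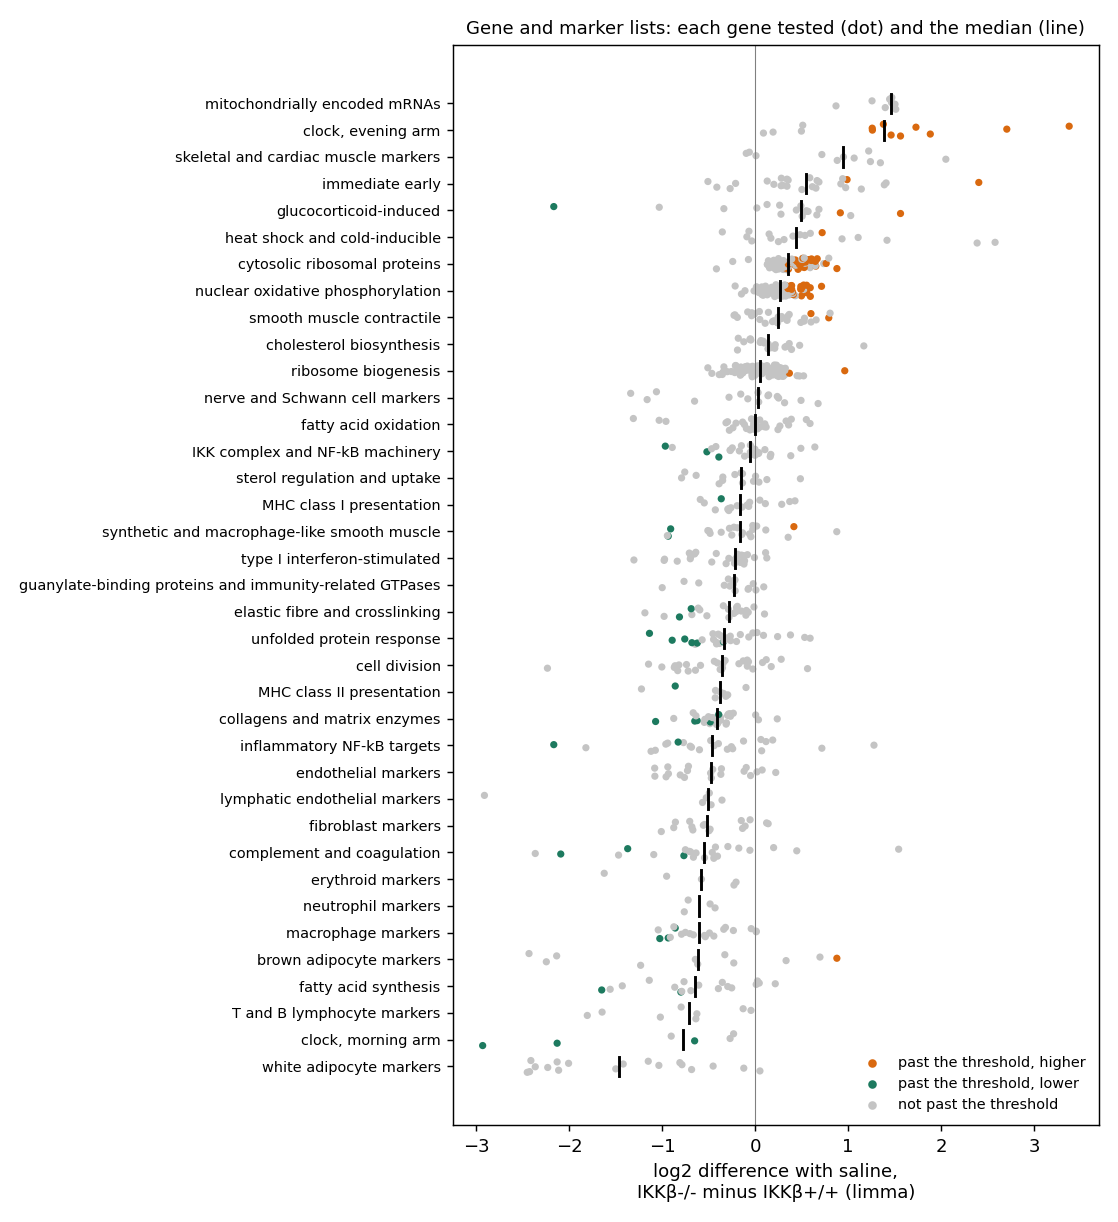
Log2 difference between saline-infused IKKβ-/- and IKKβ+/+ mice for each gene tested (dot) in the 37 lists with at least 4 genes tested, and the median of each list (line). Orange and green dots passed the threshold as higher or lower. The mitochondrial mRNAs and the evening clock genes have the highest medians (1.46 and 1.38), and the white adipocyte markers the lowest (-1.46).

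With all mice in the fit, genes close to Ikbkb passed more often than genes elsewhere. Of 68 genes tested within 5 Mb of it, 9 were DEGs (13.2%), against 5.47% of all genes and 38 of 716 (5.31%) on the rest of chromosome 8. Besides Ikbkb, the deleted gene itself, these were Plat, Smim19, Hgsnat and Erlin2, and the predicted or non-coding genes Gm40466, 6820431F20Rik, Gm21092 and Gm17484. Without X2406 only Hgsnat of the 9 passed (adjusted p = 0.062 from limma). Plat (chromosome 8, 22757727 to 22782844), tissue plasminogen activator, starts 98.52 kb from the start of Ikbkb. It had 1020, 862, 526 and 910 normalized counts in IKKβ-/- mice and 1960, 1780, 2560, 1960 and 2230 in IKKβ+/+ mice, a fall of 1.37 (SE 0.317, adjusted p = 0.0483 from limma) with no overlap and a fall of 1.16 without X2406 (adjusted p = 0.166).

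Smim19, a small membrane protein gene on the other side of Ikbkb, had 401, 397, 477 and 422 against 303, 279, 270, 287 and 332 normalized counts and rose by 0.53 (SE 0.12, adjusted p = 0.0469 from limma). Hgsnat had 510, 484, 362 and 513 against 694, 646, 720, 701 and 812 normalized counts and fell by 0.62 (SE 0.107, adjusted p = 0.027), and Erlin2, an endoplasmic reticulum protein of the lipid raft type, fell by 0.37. In all 3 the groups did not overlap. Gm21092 had 0 to 3.16 normalized counts in IKKβ-/- mice, at most 3 reads in each, and 7.05 to 13.3 in IKKβ+/+ mice, and Gm40466 had 15.2 to 34.2 and 2.66 to 9.56. Gm21092, Gm40466 and 6820431F20Rik are annotated as unprocessed pseudogenes, so reads of their near copies may be shared among them.

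The same neighbourhood stood out in the mice given Ang II, which are other animals. There 19 genes passed in all (0.128%; 3 higher and 16 lower, with 2118 at an unadjusted p under 0.05), 3 of the 68 genes near Ikbkb did (4.41%) and 5 of the 19 lay on chromosome 8. Ank1, an ankyrin of the erythrocyte membrane skeleton that starts 315.6 kb from Ikbkb, was at -1.78 with Ang II (adjusted p = 0.0803 from limma) and at -0.95 with saline (adjusted p = 0.134). Gm21092 was at -2.94 and -2.66, and Hgsnat at -0.51 and -0.62. Farther out, 11.1 and 11.4 Mb from Ikbkb, Gtf2e2 and Dctn6 were at -0.51 and -0.42 with Ang II (adjusted p = 0.0803 from limma for each). Neither passed with saline, where they were at 0.08 and -0.03 (adjusted p = 0.757 and 0.873 from limma). Gsr, beside them at 11 Mb, was at 0.95 with saline and at 0.47 with Ang II, where it did not pass (adjusted p = 0.153 from limma). Of the 9 DEGs near Ikbkb with saline, 8 had the same sign with Ang II. IKKβ-/- mice differ from IKKβ+/+ mice in the deletion of Ikbkb and in any sequence linked to the floxed allele, and these cannot be told apart here.

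**Figure D5:**
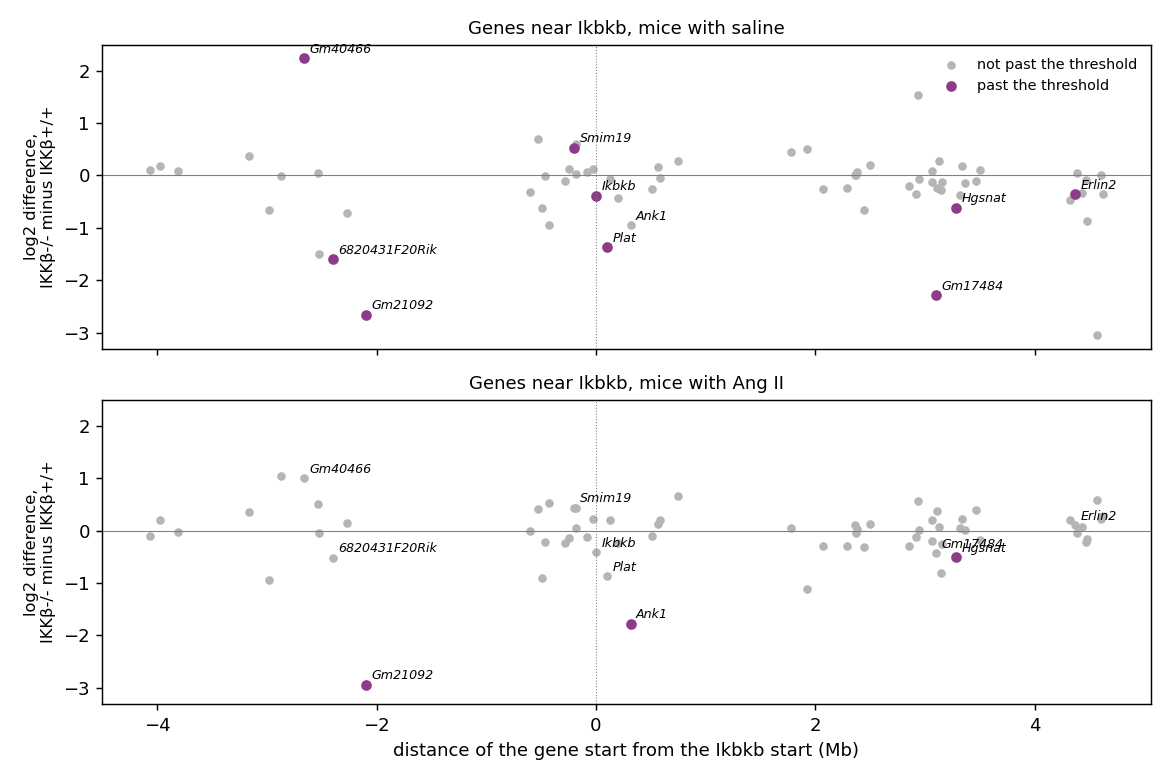
Log2 difference between IKKβ-/- and IKKβ+/+ mice for the 68 genes tested within 5 Mb of Ikbkb, by distance of the gene start from the start of Ikbkb in Mb, with saline (top) and with Ang II (bottom). Purple points passed the threshold, 9 with saline and 3 with Ang II, and the named genes passed in at least 1 of the comparisons.

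Fewer genes passed between genotypes with Ang II (19) than with saline (812), but the saline count was 24 without X2406 and 66 without X2403. These counts therefore do not show a larger genotype effect with saline. Of the 812 DEGs of saline-infused mice, 627 (77.2%) had the same sign with Ang II, against 58.3% of all genes tested. Their median log2 difference with Ang II was 0.17 for the higher and -0.18 for the lower genes. The 812 were chosen by their saline values, so their differences would tend to be smaller in any other mice. The medians therefore do not show a weaker genotype effect with Ang II. Over all genes tested the 2 sets of log2 differences had a Pearson correlation of 0.185 and a Spearman correlation of 0.204, computed across genes, which are not independent. Hgsnat, Acbd4, Gm21092, Gm36161 and Prkca passed in both comparisons, each in the same direction. Acbd4 was at 0.88 with Ang II and 0.995 with saline. For the difference between the genotype effects with Ang II and with saline, 0 genes passed in limma (smallest adjusted p = 0.215, 1654 at an unadjusted p under 0.05), 0 in edgeR and 374 in DESeq2, and 19 passed in limma without X2406. In limma with all mice, no gene above is therefore shown to differ in its genotype effect between saline and Ang II. Which genes passed this contrast without X2406 is not given here.

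Transcript properties of the DEGs differed from the genes tested. Protein-coding genes made up 89.4% of genes tested, 77.4% of the higher and 93.2% of the lower DEGs, and the median length of the longest transcript was 3282, 2527 and 4420.5 bases. Among protein-coding genes, grouped into 5 classes by transcript length, the shortest class had a median log2 difference of 0.13 with 6.4% higher and 0.421% lower DEGs, and the longest class one of -0.14 with 2.14% and 3.76%. Ribosomal protein and respiratory chain genes are short and most matrix genes are long, and the part of transcript length in their differences was not tested. A RefSeq promoter was matched for 11008 of the 14845 genes (74.2%). Of the promoters of higher genes 14% held the E-box CACGTG, against 8.81% of lower genes and 11.4% of all genes tested. The cAMP response element TGACGTCA was in 4.88%, 0.881% and 3.42%, and the interferon response element GAAANNGAAA in 2.13%, 6.17% and 3.82%. The loose NF-κB letters GGGNNNNNCC were in 66.2%, 70.9% and 71.5%. The D-box, spelled TTATGTAA or TTACGTAA, was in 1.52%, 1.32% and 0.845%, the ROR element in 2.44%, 2.64% and 2.25%, the sterol response element TCACNCCAC in 1.83%, 0.441% and 1.41%, and the glucocorticoid receptor letters ACANNNTGT in 3.96%, 3.96% and 5.2%. These are matches of letters on either strand in a window at any start site of the gene in the table, with no test.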

How the data were processed

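RNA of the whole SRA was sequenced as stranded, poly(A)-selected single-end libraries. According to the submitters' processing notes and the study's methods, reads were trimmed with Trimmomatic 0.35, aligned to GRCm38 with STAR 2.7.1a, counted per gene and normalized with DESeq2 1.30.1. The deposited matrix holds these values as a normalized signal, gene counts divided by a size factor of each library by the authors, and is called normalized counts here. In all 19 libraries the values are whole multiples of 1 read (100% of values, tolerance 0.05), from which reads were recovered. In X2359, a mouse given Ang II, the value of 1 read is 0.994, too close to 1 for the recovered reads to be checked independently, and it was left out of the edgeR and DESeq2 fits, which held 18 mice.

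Genes with a value of at least 10 in at least 4 of the 19 mice were kept. limma 3.58.1 (R 4.3.3) fitted log2(value + 1) over the 4 groups of 19 mice with a trended empirical Bayes step, so all groups shared 1 estimate of the spread. A fold change on this scale understates the change of low genes. Benjamini-Hochberg adjustment ran over all genes kept, and the threshold was an adjusted p under 0.1 together with a fold change above 1.2. P-values measure the spread between mice, and which mice shared a litter or a preparation day is not given in the sources used here. Ikbkb was also tested by an exact permutation test. Alternatives were edgeR 4.0.16, DESeq2 1.42.0, other scalings, filters, thresholds, covariates and leaving out each mouse. The script for the fits was tested on simulated data.

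Named genes were Ikbkb and 9 genes of the study's markers and kinase complex, the 10 largest rises and falls without overlap and with a group mean of at least 50 normalized counts, up to 3 genes of each of 26 gene lists and 14 marker lists, and genes past the threshold within 5 Mb of Ikbkb. Other genes named, among them the 14 genes past the threshold in every fit without 1 mouse, were chosen after their values were seen. Some genes that the rule names are not reported here. The comparison and the lists were chosen with earlier results of these data known. Promoter sequences are from RefSeq (GRCm38.p6). Figures were drawn with matplotlib 3.10.9.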

Additional observations from a re-analysis of the deposited data

Results flagged for a closer look

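In 8 of 274 groups of mice examined, 1 mouse lay farther from the others than Dixon's 95% critical value allows, which chance gives in about 1 in 20 groups. In IKKβ-/- mice these were X2406 for Gm10800 (391 normalized counts) and for Per3 (1620 normalized counts), X2409 for Mmrn1, a lymphatic and endothelial gene (171 normalized counts, with 1.93 to 10.8 in the other 3), and X2401 for the mean log2 score of the T and B lymphocyte markers (-1.37). In IKKβ+/+ mice they were X2372 for Chuk (511 normalized counts), X2376 for Lcn2 (14.2 normalized counts) and for C2 (128 normalized counts), and X2370 for the muscle creatine kinase gene Ckm (57.9 normalized counts).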

How the results depend on the processing

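Of 812 genes (504 higher, 308 lower), the count was 1420 (690 lower) with only the saline groups fitted, 1902 (1022 higher, 880 lower) with array weights, 136 (84, 52) at an adjusted p under 0.05, 504 (301, 203) at a fold change above 1.5, 455 (273, 182) with the white adipocyte score as a covariate, 0 (0, 0) in limma with the clock score as a covariate (1395 at an unadjusted p under 0.05), 31 (20, 11) with the mitochondrial share as a covariate (an alternative added once the data had been seen) and 1358 (868, 490) in DESeq2. The evening clock score was higher in every IKKβ-/- than in any IKKβ+/+ saline mouse, by a narrow gap, so the fit with the clock score separates clock from genotype only in part. Leaving out 1 mouse gave 24 to 1726 genes, 14 to 941 higher and 10 to 785 lower. The higher share was 62.1% as reported, 51.4% with the saline groups alone, 53.7% with weights, 68.3% in edgeR and 36.4% without X2403. The difference between the genotype effects gave 0 genes in limma, 76 with weights, 37 with the mitochondrial share, 374 in DESeq2, and 0 to 19 without 1 mouse (1 without X2409 or X2378). The cause was not tested. Signs turned for Atg5 (0.00322 with weights, 0.118 with the clock score, 0.00732 without X2370, 0.013 without X2372, 0.0775 without X2403, and -0.075 at the lowest without 1 mouse), Fdx1 (0.00251 with weights, 0.095 with the clock score, 0.0195 with the adipocyte score, 0.0299 without X2406, and -0.166 at the lowest without 1 mouse), Myh11 (-0.0108 with the adipocyte score), and with the mitochondrial share Krt18 (0.0101), S100b (-0.182) and mt-Nd4 (-0.00362). Dbp (-0.671) and Per3 (-0.0623) turned with the clock score, which they are part of. Over the alternatives, 1400 values of named genes kept their direction and side of the threshold, 594 lost the threshold, 28 gained it and 15 turned. No paired analysis was possible because each mouse has its own number and the groups share none.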
